A study of Mus musculus with 6 samples.

Results

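Lysosomal transcripts were described in RNA sequencing libraries of whole mouse eyes. The set was a fixed list of 46 gene symbols for lysosomal hydrolases, their lipid-binding cofactors, lysosomal membrane proteins and subunits of the vacuolar proton pump, taken from 22692 symbols in the tables, and all 46 were present. The groups were eyes taken 9.0 h after light onset (3 libraries) and eyes taken 1.5 h after light onset (3 libraries). Every library came from the inbred strain C57BL/6J, with no allele or treatment named, and was made from eyes of 5 females, 4 weeks old, whose RNA was pooled. Polyadenylated RNA of the whole eye was sequenced, so retina, pigment epithelium, lens, cornea, sclera and muscle are mixed in each value. Whether replicate pools came from separate animals is not stated in the labels, and p-values therefore rest on a spread that may be technical. In such bulk tissue, fewer cells of a type and less RNA per cell cannot be told apart.

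Lysosomes are acidic organelles that break down material delivered by endocytosis, phagocytosis and autophagy. A vacuolar proton pump (V-ATPase) acidifies the lumen, where proteases, glycosidases, sulfatases and lipid hydrolases work, while heavily glycosylated membrane proteins line the organelle and carry its products out. In the eye they are known above all from the retinal pigment epithelium, which digests the tips of photoreceptor outer segments shed each day soon after light onset, and from storage diseases in which a missing enzyme harms the retina or cornea.

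The file headers name no unit, and the values were read as RPKM, reads per kilobase of gene model scaled to the size of the library. Library size, read from the steps in which low values fall, was 31720000, 30060000 and 24040000 reads in 9.0 h replicates 1 to 3, against 28950000, 12690000 and 13000000 reads in 1.5 h replicates 1 to 3. A transcript of 2 kb at 1 RPKM then had 25.4 to 63.4 reads. Markers of the labelled tissue were present in both groups, with mean levels of 1595 and 1664 RPKM for the corneal keratin Krt12 and 58.7 and 67.2 RPKM for the pigment epithelium gene Rpe65 at 9.0 h and 1.5 h. Some libraries stood apart. In 1.5 h replicate 1, lens genes lay 0.84, stroma and sclera genes 0.87 and skeletal muscle genes 0.75 log2 units below their means over the 6 libraries. Lens genes also differed between the times, with sums of 122469 to 144240 RPKM at 9.0 h and 74296 to 118037 RPKM at 1.5 h. Of 9 lens genes, 8 had a higher mean log2 value at 9.0 h (88.9%, against 49.4% of all tested genes). The part of this tissue in the lysosomal values was not tested. In 1.5 h replicate 3, 4 of 4 Y-linked genes had reads (1.59 RPKM in sum) although the pool is labelled female, and the other 5 libraries had none. The blood gene Beta-s was at 367 RPKM in that library, against 82.7, 118 and 102 RPKM at 9.0 h and 41.9 and 53.0 RPKM in the other 1.5 h libraries. Results are therefore also given without these libraries.

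Part of the set shares a promoter sequence. Transcription factor EB and its relatives are known to bind a palindrome in front of lysosomal genes, TCACGTGA with a G before it and a C after it, whose centre CACGTG is also the E-box bound by the circadian activators CLOCK and ARNTL. In RefSeq promoter windows of build GRCm38.p6, from 250 bases before to 50 after the gene start, 40 of the 46 genes had a window. All 3 words read the same on both strands, and each longer word contains the shorter ones. The full palindrome was in 0 of 40 genes (0.37% of 27025 genes with a window), its inner part TCACGTGA in 6 of 40 (15.0%, against 1.12% of all genes), and CACGTG in 13 of 40 (32.5%, against 8.09% of all genes). The 6 genes with TCACGTGA were Ctsa, Ctsd, Gla, Mcoln1, Atp6v0d1 and Atp6v1a. A match describes these letters only. Windows of 4 of them are shown, with TCACGTGA in capitals: the most abundant cathepsin (Ctsd), the calcium channel Mcoln1, and the pump subunits with the highest and the lowest fold change between the times (Atp6v0d1 and Atp6v1a). Ctsd lies at chr7:142387778-142388077 on the minus strand, with the word starting 99 bases before the gene start. Mcoln1 lies at chr8:3500269-3500568 on the plus strand (46 bases before), Atp6v0d1 at chr8:105566015-105566314 on the minus strand (4 bases before) and Atp6v1a at chr16:44139210-44139509 on the minus strand (132 bases before).
Ctsd: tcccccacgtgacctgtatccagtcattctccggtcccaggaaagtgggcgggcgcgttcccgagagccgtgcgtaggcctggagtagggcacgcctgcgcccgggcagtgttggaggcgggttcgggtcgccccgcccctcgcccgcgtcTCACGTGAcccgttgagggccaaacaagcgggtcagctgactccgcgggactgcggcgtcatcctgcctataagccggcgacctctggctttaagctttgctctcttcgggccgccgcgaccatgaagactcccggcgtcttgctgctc
Mcoln1: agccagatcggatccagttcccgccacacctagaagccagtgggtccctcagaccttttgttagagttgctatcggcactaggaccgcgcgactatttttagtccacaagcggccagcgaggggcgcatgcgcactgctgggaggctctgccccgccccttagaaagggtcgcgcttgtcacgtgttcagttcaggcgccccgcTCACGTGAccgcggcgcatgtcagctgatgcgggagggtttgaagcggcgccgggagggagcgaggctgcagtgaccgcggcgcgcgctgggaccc
Atp6v0d1: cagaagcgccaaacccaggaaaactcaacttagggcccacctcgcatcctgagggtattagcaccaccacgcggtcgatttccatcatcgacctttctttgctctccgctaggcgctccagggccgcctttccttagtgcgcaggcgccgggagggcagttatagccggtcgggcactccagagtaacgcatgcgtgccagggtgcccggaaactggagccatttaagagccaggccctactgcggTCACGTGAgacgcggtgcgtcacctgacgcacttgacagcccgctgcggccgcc
Atp6v1a: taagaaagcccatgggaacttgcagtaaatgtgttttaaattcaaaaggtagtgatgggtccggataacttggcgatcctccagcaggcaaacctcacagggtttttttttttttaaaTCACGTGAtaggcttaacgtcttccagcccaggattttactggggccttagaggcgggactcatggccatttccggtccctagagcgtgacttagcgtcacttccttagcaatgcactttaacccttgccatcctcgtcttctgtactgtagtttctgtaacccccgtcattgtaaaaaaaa

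No lysosomal transcript passed the test between 9.0 h and 1.5 h. Of 45 genes tested, 0 were called by limma at an adjusted p of 0.05 over all 13490 tested genes, against 0.222% of all tested genes (0.148% higher and 0.0741% lower at 9.0 h). The largest difference was a 1.41-fold higher level at 9.0 h (Gm2a, adjusted p = 0.249), and the lowest fold was 0.805 (Atp6v1a). Standard errors of the log2 fold change were between 0.13 and 0.22, so small differences could not be told from the spread between libraries. At an unadjusted p of 0.05, 7 genes were higher at 9.0 h (15.6% of the 45, against 6.47% of all tested genes) and 0 lower (against 4.58%). These were Gm2a, Ctsk, Man2b1, Atp6v0a1, Atp6v0d1, Glb1 and Arsa, with limma adjusted p between 0.249 and 0.447.

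More of the small differences were above 0 than below. The log2 fold change, 9.0 h minus 1.5 h, was above 0 in 29 of the 45 genes (64.4%, against 49.4% of all tested genes), with a median of 0.09, against −0.003 over all tested genes. Among genes with a mean of at least 5 RPKM, the median was 0.089 for 42 lysosomal genes, against 0.024 for all 8980. In 11 genes every 9.0 h library was above every 1.5 h library (24.4%, against 9.78% of all tested genes). These were Ctsd, Ctsk, Hexa, Glb1, Gusb, Man2b1, Arsa, Gm2a, Npc1, Atp6v0a1 and Atp6v0d1. In 1 gene, Ids, every 9.0 h library was below (2.22%, against 8.41%). Over all tested genes, 18.2% did not overlap in one direction or the other. After quantile normalization 25 of 45 genes were above 0, with a median of 0.015. Without 1.5 h replicate 1, 23 of 45 genes were above 0 and the median was 0.03. In that setting 13 genes lay wholly above (28.9%, against 18.8% of all tested genes) and 6 wholly below (13.3%, against 19.4%), the 6 being Lgmn, Tpp1, Ids, Lamp2, Atp6v1a and Atp6ap1. Without 1.5 h replicate 3 the median was 0.08, with 13 genes wholly above (28.9%, against 12.2% of all tested genes) and 1 below (2.22%, against 13.8%).

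**Figure D1:**
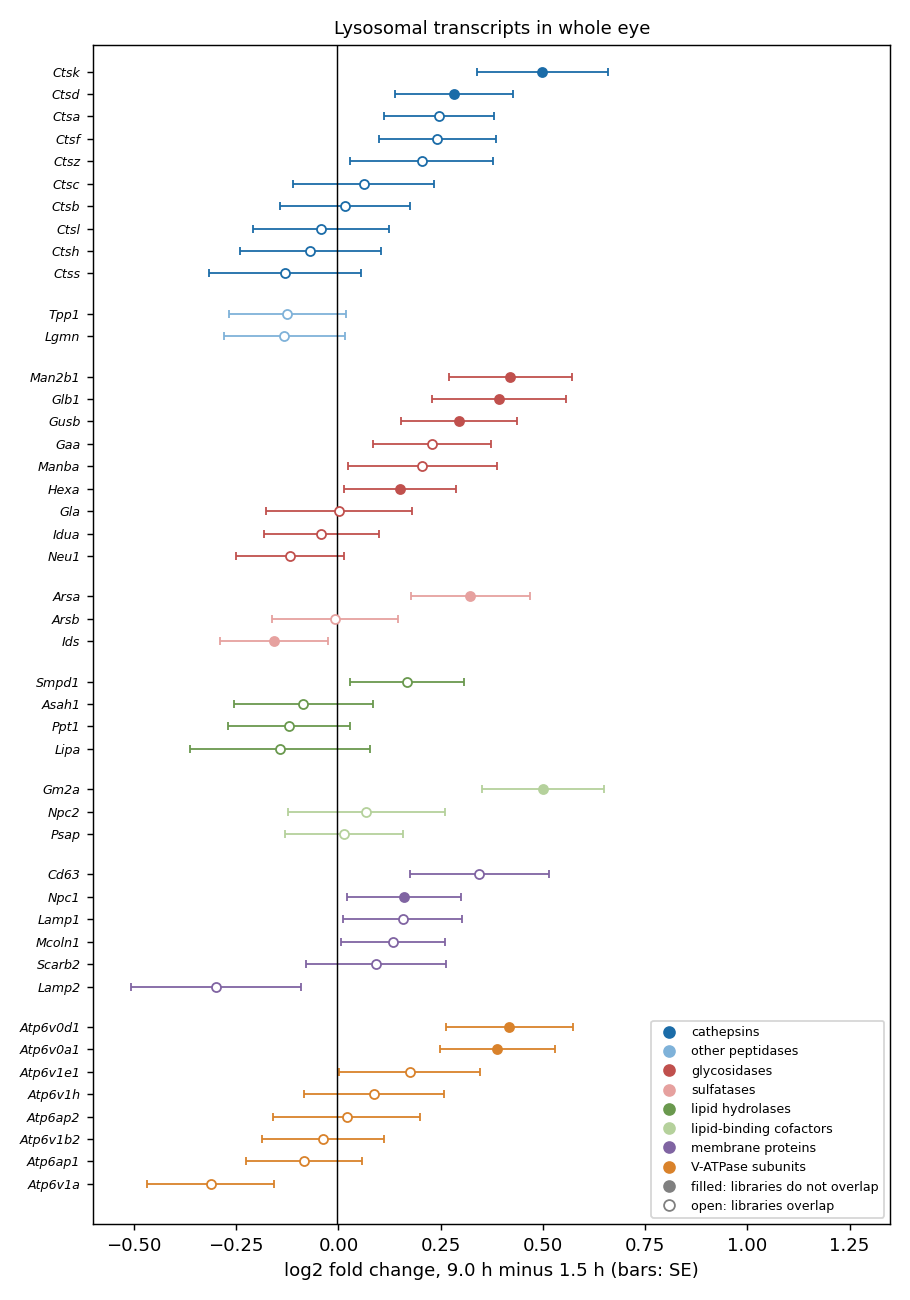
Log2 fold change (9.0 h minus 1.5 h, x axis) of the 45 tested lysosomal genes, grouped by class (y axis), with bars for the standard error. Filled points mark the 12 genes whose libraries did not overlap between the times, 11 of them right of the vertical line at the median of all tested genes.

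The 10 cathepsins, lysosomal proteases, had a median log2 fold change of 0.13, with 7 above 0 and 0 called. Ctsd, the main aspartic protease of the lysosome, had 411, 388 and 426 RPKM at 9.0 h, against 348, 315 and 345 RPKM at 1.5 h. Its log2 fold change was 0.28 ± 0.14 (SE), and the groups did not overlap (limma adjusted p = 0.521). Ctsl, a cysteine endopeptidase, had 229, 247 and 242 RPKM at 9.0 h, against 229, 303 and 215 RPKM at 1.5 h. The 9.0 h values lay inside the 1.5 h range, which 1.5 h replicate 2 set at the top, and the log2 fold change was −0.04. Ctsb, another cysteine protease, was as close, with means of 107 ± 3.49 and 107 ± 18.5 RPKM at 9.0 h and 1.5 h (SD, n = 3 each).

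Ctsk, a collagen-degrading protease best known from bone-resorbing osteoclasts, had the highest fold change of the class. It had 39.8, 36.2 and 36.2 RPKM at 9.0 h, against 21.05, 30.4 and 28.8 RPKM at 1.5 h. All 9.0 h libraries were higher, the lowest value was that of 1.5 h replicate 1, and the log2 fold change was 0.50 ± 0.16 (limma adjusted p = 0.285). Of 8 markers of stroma and sclera 6 were above 0, none was at 0, and they summed to between 1562 and 1999 RPKM at 9.0 h and between 853 and 1733 RPKM at 1.5 h. The collagen gene Col1a1 had the highest fold change of them, with 324 and 117 RPKM at 9.0 h and 1.5 h (log2 fold change 1.52, limma adjusted p = 0.139). Log2 fold changes were 0.94 for Col1a2, 0.93 for Col3a1, 0.58 for Fmod and 0.18 for Kera. In 4 of the 8 markers every 9.0 h library was above every 1.5 h library (50%, against 9.78% of all tested genes). In 0 every 9.0 h library was below (against 8.41%). The most abundant, the proteoglycan gene Dcn, had 656 and 727 RPKM (log2 fold change −0.07), and Lum and Ogn had log2 fold changes of 0.06 and −0.15. Their part in the Ctsk value was not tested, and without 1.5 h replicate 1 the Ctsk log2 fold change was 0.34.

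Ctss, a cysteine protease of antigen-presenting cells, had the lowest fold change of the class. It had 17.4, 18.0 and 14.8 RPKM at 9.0 h, against 14.9, 24.3 and 16.8 RPKM at 1.5 h. The groups overlapped and 1.5 h replicate 2 was highest (log2 fold change −0.13 ± 0.19, limma adjusted p = 0.847). Markers of microglia and macrophages, which express it strongly, had 6 of 12 tested genes above 0. Their 13 genes in the tables summed to between 158 and 172 RPKM at 9.0 h and between 168 and 206 RPKM at 1.5 h. Lyz2, a lysozyme gene, made up much of that sum, with 50.1 and 69.9 RPKM at 9.0 h and 1.5 h. Every 9.0 h library of Lyz2 was below every 1.5 h library (log2 fold change −0.45, limma adjusted p = 0.382). In C1qa and Csf1r every 9.0 h library was above every 1.5 h library, with log2 fold changes of 0.35 and 0.24 (limma adjusted p = 0.359 and 0.586). Of the 12 tested markers, 2 were thus wholly above (16.7%, against 9.78% of all tested genes) and 1 wholly below (8.33%, against 8.41%). Of the defining markers C1qa, Csf1r, Cx3cr1 and Ptprc none was at 0, but Ptprc was below the filter. The part of these cells in the Ctss value was not tested.

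The other 5 cathepsins spanned a narrow range. Ctsa, a carboxypeptidase that also protects the sialidase Neu1, Ctsf and Ctsz had log2 fold changes of 0.25, 0.24 and 0.20. Ctsc, which activates serine proteases of immune cells, had 0.06 and Ctsh, an aminopeptidase, −0.07. Both further peptidases were lower in the mean at 9.0 h. Lgmn, an asparagine-specific endopeptidase, had 87.6, 80.5 and 82.7 RPKM at 9.0 h, against 78.6, 104 and 94.0 RPKM at 1.5 h. Tpp1, the enzyme lost in a childhood form of Batten disease, had 33.2, 30.5 and 28.8 RPKM at 9.0 h, against 29.0, 37.3 and 35.0 RPKM at 1.5 h. Both overlapped only through 1.5 h replicate 1, the lowest 1.5 h library of each, and both log2 fold changes were −0.13 (limma adjusted p = 0.796 for Lgmn and 0.799 for Tpp1).

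Glycosidases, which trim sugars from glycoproteins, glycolipids and glycosaminoglycans, had the highest median of the 4 larger classes. Of 9, 7 were above 0, the median log2 fold change was 0.21, and 4 had every 9.0 h library above every 1.5 h library (44.4%, against 9.78% of all tested genes). Man2b1, lysosomal alpha-mannosidase, had 15.7, 12.0 and 11.9 RPKM at 9.0 h, against 9.60, 9.45 and 10.2 RPKM at 1.5 h. The 9.0 h libraries were all higher, replicate 1 most of all, with a log2 fold change of 0.42 ± 0.15 (limma adjusted p = 0.342). Glb1, the beta-galactosidase whose loss causes a storage disease of ganglioside GM1, had 9.86, 8.36 and 7.81 RPKM at 9.0 h, against 5.66, 7.67 and 6.48 RPKM at 1.5 h. These groups were separate by a small margin (log2 fold change 0.39 ± 0.16, limma adjusted p = 0.407).

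The most abundant glycosidases differed less. Hexa, the alpha subunit of hexosaminidase A that is lost in Tay-Sachs disease, had 47.2, 44.6 and 44.6 RPKM at 9.0 h, against 36.0, 43.2 and 44.0 RPKM at 1.5 h. The groups did not overlap, but apart from 1.5 h replicate 1 they differed by little, and the log2 fold change was 0.15 ± 0.14. Gaa, which breaks down glycogen and is lost in Pompe disease, had 46.9, 37.2 and 41.8 RPKM at 9.0 h, against 39.6, 33.6 and 34.0 RPKM at 1.5 h (log2 fold change 0.23, overlapping). Gusb, beta-glucuronidase, had 9.18 ± 0.622 RPKM at 9.0 h and 7.47 ± 0.657 RPKM at 1.5 h without overlap (log2 fold change 0.30, limma adjusted p = 0.484). Neu1, the lysosomal sialidase, had the lowest fold change of the class, with 12.7, 11.5 and 12.6 RPKM at 9.0 h, against 14.3, 12.6 and 13.0 RPKM at 1.5 h (log2 fold change −0.12). Manba, beta-mannosidase, had 0.21, Idua, which cleaves iduronic acid from dermatan and heparan sulfate, −0.04, and Gla, the enzyme lost in Fabry disease and the least abundant tested gene of the set at 1.87 RPKM over all libraries, 0.002.

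Sulfatases were split. Arsa, which removes sulfate from the myelin lipid sulfatide, had 7.04, 5.92 and 6.45 RPKM at 9.0 h, against 5.25, 5.44 and 4.76 RPKM at 1.5 h. It did not overlap (log2 fold change 0.32 ± 0.14, limma adjusted p = 0.447). Ids, iduronate sulfatase, had 17.2, 18.5 and 17.6 RPKM at 9.0 h, against 18.6, 22.1 and 18.9 RPKM at 1.5 h. It was the gene of the set with all 9.0 h libraries lower, by a small margin between the nearest libraries (log2 fold change −0.16 ± 0.13, limma adjusted p = 0.717). Arsb, which acts on dermatan and chondroitin sulfate, had 18.0, 17.4 and 15.6 RPKM at 9.0 h, against 14.4, 20.4 and 16.9 RPKM at 1.5 h, and overlapped (log2 fold change −0.01).

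Lipid-degrading enzymes mostly had slightly negative fold changes, 3 of 4 below 0 with a median of −0.10. Smpd1, acid sphingomyelinase, was the most abundant, with 70.2, 65.2 and 67.7 RPKM at 9.0 h, against 55.7, 57.4 and 68.4 RPKM at 1.5 h (log2 fold change 0.17). Asah1, acid ceramidase, had 24.9, 30.8 and 25.2 RPKM at 9.0 h, against 23.5, 35.0 and 28.1 RPKM at 1.5 h (log2 fold change −0.09). Both genes overlapped between the times. Lipa, which frees cholesterol from lipoprotein esters, had 13.2, 12.9 and 10.1 RPKM at 9.0 h, against 9.84, 18.6 and 12.7 RPKM at 1.5 h. Its 1.5 h libraries enclosed all 9.0 h values, its standard error of 0.22 was the highest of the set, and its log2 fold change was −0.14. Ppt1, a thioesterase that removes palmitate from proteins, had −0.12 and also overlapped.

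Among the lipid-binding cofactors, Gm2a differed most of the whole set. It encodes the activator that lifts ganglioside GM2 to hexosaminidase A. It had 18.7, 16.8 and 16.4 RPKM at 9.0 h, against 10.3, 13.3 and 13.2 RPKM at 1.5 h. The groups were clearly apart, with a log2 fold change of 0.50 ± 0.15 and a limma adjusted p of 0.249. Over the libraries left out in turn, the log2 fold change stayed between 0.38 and 0.56 and the adjusted p between 0.116 and 0.791. Hexa, its partner enzyme, is given above at 0.15, and the difference between these fold changes was not tested.

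Psap, the precursor of the saposins, and Npc2, the soluble cholesterol carrier, had the smallest differences of this class. Psap had 393, 345 and 379 RPKM at 9.0 h, against 376, 370 and 359 RPKM at 1.5 h, and with Ctsd it was the most abundant transcript of the set (log2 fold change 0.01 ± 0.14). Npc2 had 31.1, 35.6 and 34.3 RPKM at 9.0 h, against 24.3, 42.5 and 31.9 RPKM at 1.5 h (log2 fold change 0.07 ± 0.19). Both overlapped between the times, and their limma adjusted p values were 0.984 and 0.928.

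**Figure D2:**
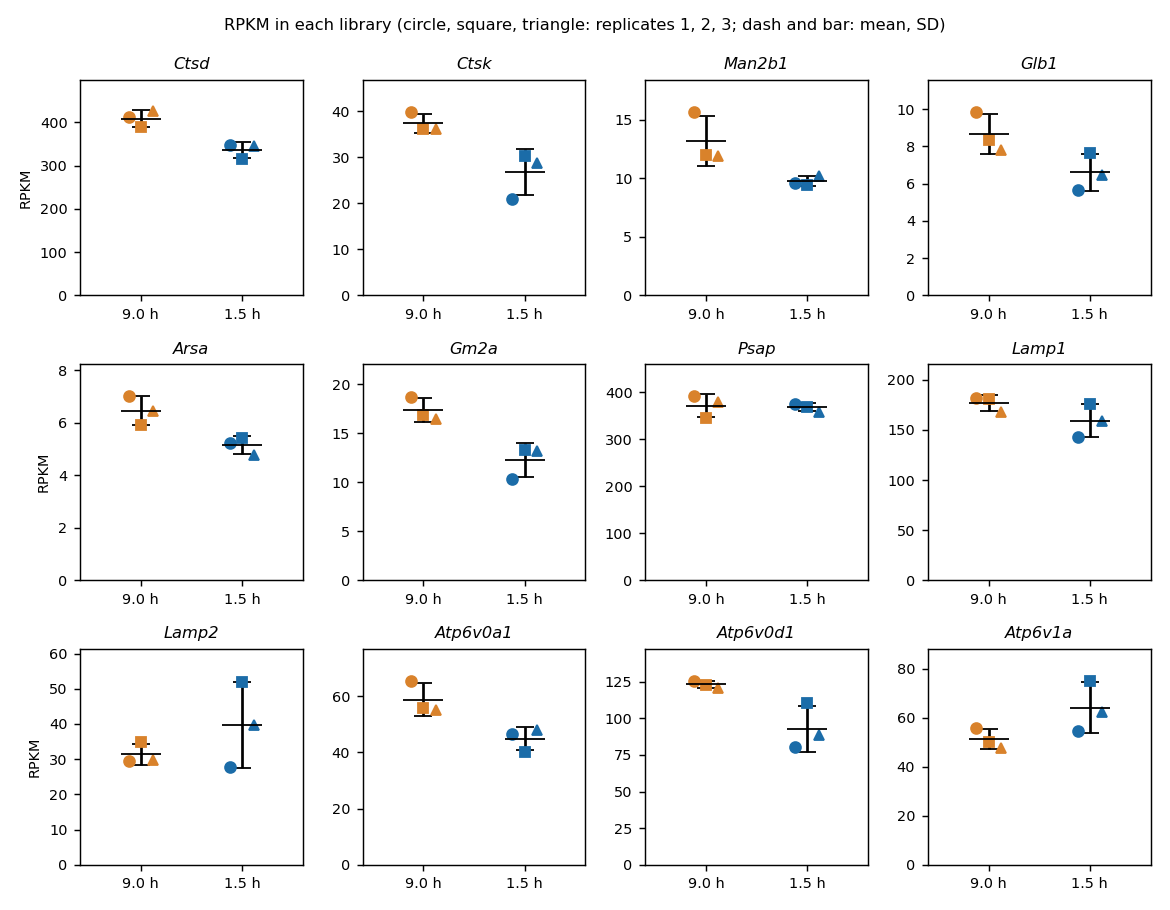
RPKM (y axis, from 0) of 12 lysosomal genes in each library at 9.0 h (left, orange) and 1.5 h (right, blue), with replicates 1, 2 and 3 as circle, square and triangle and the mean ± SD in black. Gm2a, Ctsk and Atp6v0d1 are separate between the times, while Psap overlaps and Lamp2 and Atp6v1a are lower in the mean at 9.0 h.

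Of 6 lysosomal membrane proteins, 5 were above 0, with a median log2 fold change of 0.15 and 0 called. Lamp1, a main glycoprotein of the lysosomal membrane, had 182, 181 and 168 RPKM at 9.0 h, against 143, 176 and 159 RPKM at 1.5 h (log2 fold change 0.16). Cd63, a tetraspanin of late endosomes and lysosomes, had 79.8, 94.7 and 90.6 RPKM at 9.0 h, against 57.8, 67.1 and 86.3 RPKM at 1.5 h. Its log2 fold change was 0.34 ± 0.17 (limma adjusted p = 0.497), the groups overlapped through 1.5 h replicate 3, and its value is uncertain because a pseudogene, Cd63-ps, carries near-identical sequence.

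Lamp2, needed for the fusion of autophagosomes and for chaperone-mediated autophagy, went the other way from Lamp1 in the mean. It had 29.5, 34.9 and 29.7 RPKM at 9.0 h, against 27.7, 52.0 and 39.6 RPKM at 1.5 h. The overlap came from 1.5 h replicate 1, which had the lowest value of all. Its log2 fold change was −0.30 ± 0.21 (limma adjusted p = 0.65), and −0.54 without that library, where it was the single lysosomal gene called (limma adjusted p = 0.0142). Without 1.5 h replicate 2, the highest library, it was −0.08. In the fit without 1.5 h replicate 1, 9.23% of all tested genes were called, against 2.22% of the lysosomal genes. Fold changes in that fit correlated with the GC content of the transcript (Pearson r = 0.60 over the set, 0.45 over all tested genes with a transcript). With all libraries these were 0.50 and 0.28. Lamp2 had the lowest GC content of the set, at 38.7%, and the part of base composition in its value was not tested.

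The remaining membrane proteins differed little. Npc1, which exports cholesterol from the lumen, had a log2 fold change of 0.16 without overlap, and Mcoln1, a calcium channel of the membrane, 0.13. Scarb2, the receptor that carries glucocerebrosidase to the lysosome, had 0.09.

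The proton pump was uneven among its subunits. Of 8 tested subunits 5 were above 0, with a median log2 fold change of 0.05 and 0 called. After quantile normalization 4 of 8 were above 0, with a median of −0.033. In the membrane sector, Atp6v0d1, the d subunit, had 126, 123 and 121 RPKM at 9.0 h, against 80.1, 110 and 88.4 RPKM at 1.5 h. Atp6v0a1, the a subunit isoform common in neurons, had 65.5, 55.9 and 55.0 RPKM at 9.0 h, against 46.4, 40.2 and 47.9 RPKM at 1.5 h. Neither overlapped, with log2 fold changes of 0.42 ± 0.15 for Atp6v0d1 and 0.39 ± 0.14 for Atp6v0a1 (limma adjusted p = 0.357 and 0.347).

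In the catalytic sector, Atp6v1a, the subunit that hydrolyses ATP, had the lowest fold change of the set. It had 55.7, 50.2 and 47.6 RPKM at 9.0 h, against 54.4, 75.0 and 62.5 RPKM at 1.5 h. The groups overlapped only through 1.5 h replicate 1 (log2 fold change −0.31 ± 0.15, limma adjusted p = 0.497). Atp6v1e1, the most abundant subunit and part of a peripheral stalk, had 188, 197 and 203 RPKM at 9.0 h, against 149, 220 and 159 RPKM at 1.5 h (log2 fold change 0.17). Atp6v1b2, the B subunit, had 138, 127 and 120 RPKM at 9.0 h, against 115, 144 and 137 RPKM at 1.5 h (log2 fold change −0.04). Atp6v1h, a regulatory subunit, and the accessory proteins Atp6ap1 and Atp6ap2 had 0.09, −0.08 and 0.02, and all 3 overlapped.

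Atp6v0c, which forms the proton-carrying ring, could not be measured. It was listed at 0.0272, 0 and 0 RPKM at 9.0 h, against 0.0299, 0.136 and 0.0666 RPKM at 1.5 h, which is 1, 0 and 0 reads and 1, 2 and 1 reads. It was the set's untested gene, and no fold change is given. The pseudogenes Atp6v0c-ps2 and Atp6v0c-ps1 match it at up to 99.8% identity, and Atp6v0c-ps2 was listed at 0 in every library. How reads with several matches were treated is not given in the sources used here. Atp6ap2 also has a near-identical copy, and the other 43 genes had none by this search. Exons of 10 genes, among them Ctsb, Ctsa, Hexa and Lamp1, overlap another listed gene over 0.7% to 16.3% of their length, mostly on the opposite strand, and the strand setting of the counting is not given.

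No other gene of the pathway passed the test. Of 68 tested in 6 further lists, 0 were called, 39 were above 0 and the median log2 fold change was 0.05. At an unadjusted p of 0.05, 9 of the 68 were higher and 4 lower at 9.0 h. By list, the shares higher and lower were 21.7% and 4.35% of other hydrolases and 5.26% and 10.5% of other membrane proteins. They were 20% and 10% of other pump subunits, 33.3% and 0% of 3 cystatins, and 0% in the other lists. Over all tested genes they were 6.47% and 4.58%. Of 23 other hydrolases, 15 were above 0 (median 0.08), with Ppt2, a thioesterase, at −0.08. Of 19 other membrane proteins, 10 were above 0 (median 0.11), with Laptm4b at 0.19 and Laptm4a at −0.45. Of 10 other pump subunits, 4 were above 0 (median −0.04), with Atp6v0b at 0.22 and Atp6v0e2 at 0.04. The highest and lowest fold changes there, named after their values were seen, were Atp6v1g1, a stalk subunit, at 0.62 ± 0.16 and Atp6v0e, a small membrane subunit, at −0.67 ± 0.26 (limma adjusted p = 0.192 and 0.375).

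No delivery or control gene was called. Of 10 genes that tag or sort enzymes to the lysosome, 6 were above 0 with a median of 0.01. The most abundant were Gnptg, a subunit of the enzyme that makes the mannose 6-phosphate tag, at 0.08 and M6pr, the small receptor for that tag, at 0.30. The transcription factors Tfe3 and Mitf of the family that binds the promoter palindrome had 10.3 and 3.53 RPKM at 9.0 h and 9.18 and 4.22 RPKM at 1.5 h. Tfeb had 7.02 ± 0.528 RPKM at 9.0 h and 6.05 ± 1.23 RPKM at 1.5 h, and none of the 3 was called (limma adjusted p between 0.643 and 0.758). Of 3 tested cystatins, inhibitors of cysteine cathepsins, Cst3 had means of 1548 and 1376 RPKM at 9.0 h and 1.5 h (log2 fold change 0.17) and Cstb 37.2 and 53.2 RPKM (−0.47).

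The classes were also followed from library to library. As mean log2 deviations from each gene's mean over the 6 libraries, all lysosomal genes together had 0.09, 0.06 and −0.002 in 9.0 h replicates 1 to 3, against −0.20, 0.10 and −0.04 in 1.5 h replicates 1 to 3. Replicate 1 of 1.5 h was the lowest library of all 8 classes, and replicate 2 of 1.5 h the highest for the cathepsins, other peptidases, sulfatases, lipid hydrolases and pump subunits. For the whole set, the 1.5 h group enclosed the 9.0 h group. The glycosidases did not follow this, with 0.20, 0.07 and −0.01 in 9.0 h replicates 1 to 3, all above the −0.14, −0.07 and −0.05 in 1.5 h replicates 1 to 3. The SD between replicates of the glycosidases was 0.08. The lipid-binding cofactors and the membrane proteins were not enclosed either, but overlapped between the times. Markers of the pigment epithelium had −0.23, −0.01 and −0.02 at 9.0 h, against −0.15, 0.33 and 0.07 at 1.5 h. None was at 0, and they summed to 1019 to 1195 RPKM at 9.0 h against 1018 to 1543 RPKM at 1.5 h. Of 7 tested, 1 (Ttr) was above 0 (14.3%, against 49.4% of all tested genes). The defining marker Best1 was below the filter. In the defining marker Rgr every 9.0 h library was below every 1.5 h library (log2 fold change −0.39, limma adjusted p = 0.456). This was 14.3% of the tested markers, against 8.41% of all tested genes. Of 5 pigment genes 0 were above 0 (median −0.30), and 1, Tyrp1, was wholly below (20%). The part of pigmented cells in the lysosomal values was not tested.

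**Figure D3:**
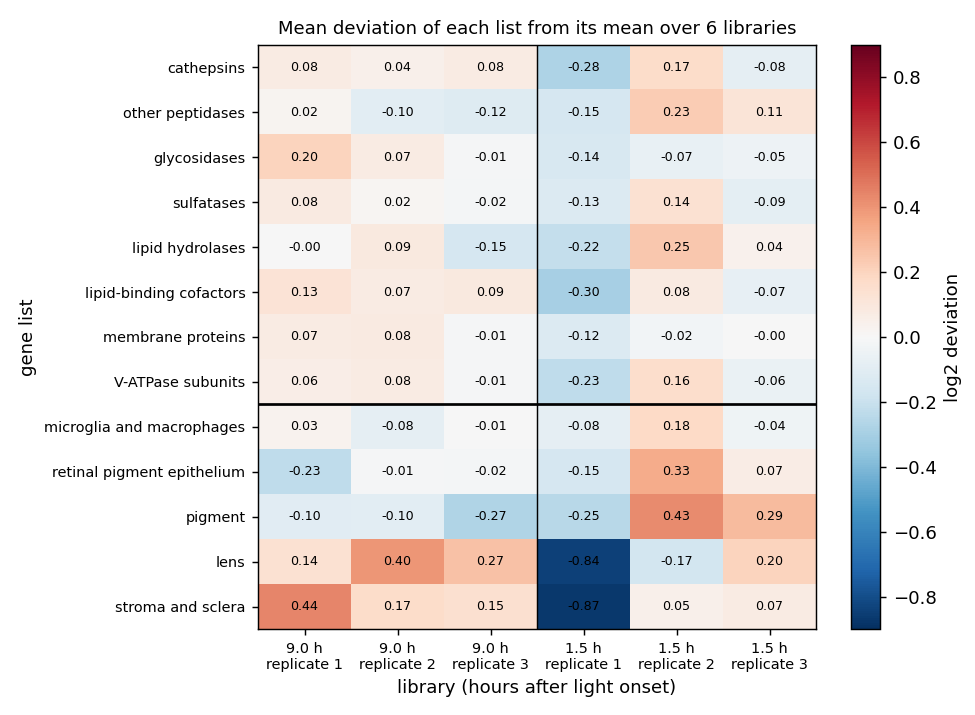
Mean log2 deviation of each gene list (rows) from its mean over the 6 libraries (columns, 9.0 h left and 1.5 h right), with lysosomal classes above the line and cell type markers below it. The column of 1.5 h replicate 1 is negative in every row, from −0.12 for the membrane proteins to −0.30 for the lipid-binding cofactors among the lysosomal classes.

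Fold changes of the set also ran with base composition. Across the 45 tested genes the log2 fold change correlated with the GC content of the transcript (Pearson r = 0.50, Spearman rho = 0.48), and across 13378 tested genes with a transcript it did so with r = 0.28 and rho = 0.36. Genes share the same 6 libraries and are not independent, so these are descriptions. Of the 22 lysosomal genes above the set's median GC content of 50.8%, 17 had a log2 fold change above 0 (median 0.19), against 12 of the 23 others (median 0.002). Over all tested genes the medians on the 2 sides of that GC content were 0.08 and −0.08. By library, the deviation of the 45 genes correlated with GC at r = 0.61, −0.31 and 0.62 in 9.0 h replicates 1 to 3, against 0.13, −0.57 and −0.39 in 1.5 h replicates 1 to 3. With GC and length trends removed from each library, the median of the set was 0.07 and 29 of 45 genes were above 0. The part of base composition in single genes was not tested beyond this.

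**Figure D4:**
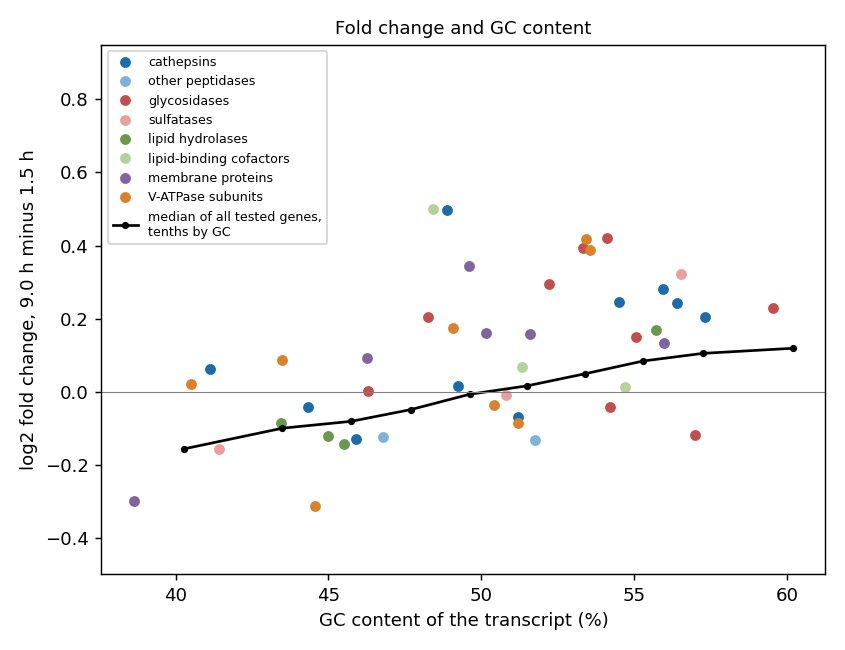
Log2 fold change (9.0 h minus 1.5 h, y axis) against GC content of the transcript in percent (x axis) for the 45 tested lysosomal genes, coloured by class, with the median of all tested genes in bins of GC content as a black line. Gm2a and Ctsk lie far above the line and Atp6v1a below it. Lamp2, at 38.7%, lies to the left of the first point of the line, at 40.3%.

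Fold changes were also set beside the promoter windows, as a description with no test. Of 13 tested genes whose window holds CACGTG 10 were above 0, with a median log2 fold change of 0.23 and a median transcript GC content of 53.4%. Of the 26 tested genes whose window lacks CACGTG 16 were above 0, with a median of 0.06 and a GC content of 49.3%. Of the 6 genes with TCACGTGA, which are among these 13 and whose windows include those printed above, 5 were above 0. Their median was 0.19 and their median GC content 54.0%, and they ranged from −0.31 for Atp6v1a to 0.42 for Atp6v0d1.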

How the data were processed

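The authors deposited 1 table per library with an RPKM value for each gene symbol. The unit was taken from the values, since per the file headers only the sample is named. The tools GSNAP and HTSeq and the mouse build mm9 are named per the submitters' processing notes. Their versions, the annotation, the strand setting and the handling of reads with several matches: not given in the sources used here. RPKM values are not counts, so no count test was run. The test was limma 3.58.1 (R 4.3.3, eBayes with trend and robust settings) on log2(RPKM + 0.1), keeping genes that reached 1 RPKM in 3 libraries, two-sided, with Benjamini-Hochberg adjustment over all tested genes. Fold changes are on that scale, which understates those of low genes. The fit was tested on simulated data. With 3 libraries against 3, no permutation test of a single gene can go below p = 0.1.

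Library size was the smallest total at which low RPKM values times transcript length gave whole reads (68.9% to 71.8% of values within 0.1 read). At 0 reads, a 2 kb transcript could hold 0.0473 to 0.118 RPKM (3 reads), which covers counting error only. Lengths, GC content, overlaps and copies (minimap2 2.31, at least 95% identity over 200 nt, more than 5000 nt away) came from GENCODE M21 on GRCm38, promoters from RefSeq, and older symbols were matched through RefSeq synonyms. No RefSeq promoter window was given for Ctsb, Ctsh, Asah1, Npc1, Atp6v1b2 and Atp6v1h.

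The members, lists and tests were chosen with earlier results of these data known. Values in every library are given for the 2 most abundant genes of each class, its highest and lowest fold change, and genes with an unadjusted p under 0.05. Of the other lists the 2 most abundant genes are named, except 1 that is not reported here. The alternatives were other pseudocounts, filters and scalings, plain eBayes, a replicate block and leaving out each library, and, chosen after seeing the data, removal of GC and length trends and the counts of non-overlapping genes without single libraries.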

Additional observations from a re-analysis of the deposited data

How the results depend on the processing

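The count of lysosomal genes called stayed at 0 in every alternative run, except without 1.5 h replicate 1, where it was 1, so that it lay between 0 and 1 over the libraries left out. Over all tested genes, 30 were called in the fit reported, 141 with the replicate block, 15 with a mean of at least 5 RPKM, 15 after quantile normalization, 15 with median-of-ratios size factors, 98 with GC and length trends removed, and between 2 (without 9.0 h replicate 3) and 1245 (without 1.5 h replicate 1) when a library was left out. Deviations of same-numbered libraries correlated at r = 0.35, 0.48 and −0.21 for replicates 1 to 3. Differently numbered libraries ranged from −0.54 (9.0 h replicate 2 with 1.5 h replicate 1) to 0.23 (9.0 h replicate 3 with 1.5 h replicate 1). These deviations were taken from the mean of each time, so the correlations depend on one another. They cannot show by themselves that libraries of the same number share spread. Deviations from the mean over the 6 libraries also correlated with GC content over all tested genes with a transcript. There r was 0.39, −0.26 and 0.43 in 9.0 h replicates 1 to 3, against 0.32, −0.55 and −0.20 in 1.5 h replicates 1 to 3. Whether the numbers mark a pairing remains unknown, and the block changed no lysosomal call. The cause of these shifts was not tested.

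With all libraries kept, class medians moved by less than 1 SD between replicates in every alternative run but one, quantile normalization for the membrane proteins. The median of the membrane proteins was 0.073 after quantile normalization, which also gave 0.015 for all lysosomal genes and −0.033 for the pump subunits, a change of sign. With libraries left out, medians ranged from −0.081 to 0.21 for the pump subunits, −0.02 to 0.22 for the cathepsins, 0.12 to 0.23 for the glycosidases, 0.09 to 0.18 for the membrane proteins and 0.03 to 0.13 for all lysosomal genes. Without 1.5 h replicates 1 and 3 in turn, 13 and 13 genes lay wholly above (18.8% and 12.2% of all tested genes), and 6 and 1 wholly below (19.4% and 13.8%).

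For 28 named genes under 15 alternatives, 402 of 420 fold changes kept their direction and their side of the threshold, 1 became called and 17 changed sign. After quantile normalization Psap had −0.18, Npc2 −0.0048 and Lamp1 −0.0100, and with GC and length trends removed Ctsl had 0.10 and Psap −0.072. With a library left out the ranges were −0.14 to 0.11 for Ctsl, −0.28 to 0.076 for Ctss, −0.13 to 0.12 for Arsb, −0.355 to 0.10 for Lipa, −0.225 to 0.062 for Asah1, −0.13 to 0.029 for Atp6v1b2, −0.13 to 0.27 for Npc2 and −0.027 to 0.068 for Psap. None of these genes was called in any of these settings. Depth was lowest in 1.5 h replicates 2 and 3, with 12690000 and 13000000 reads, and its part in these changes was not tested.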
